A study of Homo sapiens with 12 samples.

Results

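The transcription factor NRF2, encoded by NFE2L2, was followed together with its relatives NFE2L1 and NFE2L3, its dimer partners MAFF, MAFG and MAFK, the repressor BACH1, and KEAP1 and CUL3, which take part in the removal of the NRF2 protein. These 9 genes were picked by symbol, for their known roles, out of the 55765 symbols counted by RNA-seq in Hs 578T, a triple-negative breast cancer (TNBC) cell line. The cells had been transduced with lentiviral vectors for green fluorescent protein (GFP cells, the control) or for full-length NRF2 (NRF2 cells). Each population was then kept for 8 h in cystine-free medium to which l-cystine (Cyss, the oxidized dimer of cysteine) had been added at 0.8 mM, or in the same medium without it. The 4 groups had 3 libraries each. Both populations came from 1 cell line, the promoter that drives the transgenes is not given in the sources used here, and nothing in the sources states that the libraries of a group came from separate cultures, so that the p-values measure the spread between these libraries only.

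NRF2 belongs to the cap'n'collar (CNC) family of basic leucine zipper (bZIP) factors and binds antioxidant response elements as a dimer with a small MAF protein. KEAP1 holds NRF2 and presents it to a ubiquitin ligase built on CUL3, and oxidation or alkylation of cysteines in KEAP1 lets NRF2 escape degradation. BACH1 occupies the same elements with the same small MAF partners and represses genes such as HMOX1. The small MAF proteins lack an activation domain of their own, so that the partner decides what a dimer does. These are known properties of the proteins, whereas the values given here are amounts of mRNA.

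Reads counted on genes ranged from 27334061 to 44734611 per library. All 7 mesenchymal markers checked exceeded 10 CPM in every library. CPM are counts scaled by library size and by TMM factors, edgeR's adjustment for library composition. Of 8 epithelial markers, 6 stayed under 1 CPM, the exceptions being KRT8 and KRT18. The hormone receptor genes ESR1 and PGR also stayed under 1 CPM, whereas ERBB2, which encodes HER2, had 34.2 to 41.2 CPM. Principal components were taken from the 13529 genes averaging 50 or more normalized counts. On the first component, which held 43.8% of the variance, replicate 3 of GFP cells without Cyss stood at 4.81. The other libraries of its group lay apart from it, at -6.91 and -4.21. This replicate 3 lay on the side of the NRF2 cells without Cyss, which stood at 19.6 to 21.7. Results that rest on this library are given with and without it. In bulk RNA, fewer cells of one kind and less RNA per cell cannot be told apart.

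The responses of the 9 genes were uneven. MAFF, MAFK and BACH1 rose without Cyss in NRF2 cells, MAFF to about 2.09 times its level with Cyss, whereas NFE2L2 itself rose by less, to about 1.22 times in GFP cells and 1.19 times in NRF2 cells. NFE2L1 and CUL3 passed the test in no comparison. A gene passed the test with an adjusted p under 0.1 (edgeR, quasi-likelihood test, Benjamini-Hochberg adjustment over all genes), and was a differentially expressed gene (DEG) if its log2FC also exceeded 0.32 in size. SE is the standard error of a fitted log2FC.

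In GFP cells, Cyss deprivation raised 2 of the 9 genes, NFE2L2 and MAFF, and MAFF was the 1 DEG. Of all 17452 genes tested there, 5.92% passed and 2.1% were DEGs. In NRF2 cells, 4 of the 9 rose without Cyss (MAFF, BACH1, MAFK and NFE2L2), KEAP1 fell, and the first 3 were DEGs, beside 29% of all genes that passed and 11.9% that were DEGs. NRF2 cells with Cyss had more NFE2L2, NFE2L3, KEAP1 and MAFG than GFP cells with Cyss, so that 4 of the 9 passed, 1 of them (NFE2L2) as a DEG, against 6.43% and 1.56% of all genes. Without Cyss, 5 of the 9 were higher in NRF2 cells (NFE2L2, MAFF, MAFK, BACH1 and MAFG), all but MAFG as DEGs, against 28.8% and 10.1% of all genes. NFE2L2 is the gene carried by the vector, so that its calls in both comparisons of NRF2 with GFP cells followed from the design. They say nothing about the other genes in these counts. Comparisons that have a group in common are not independent of each other.

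**Figure D1:**
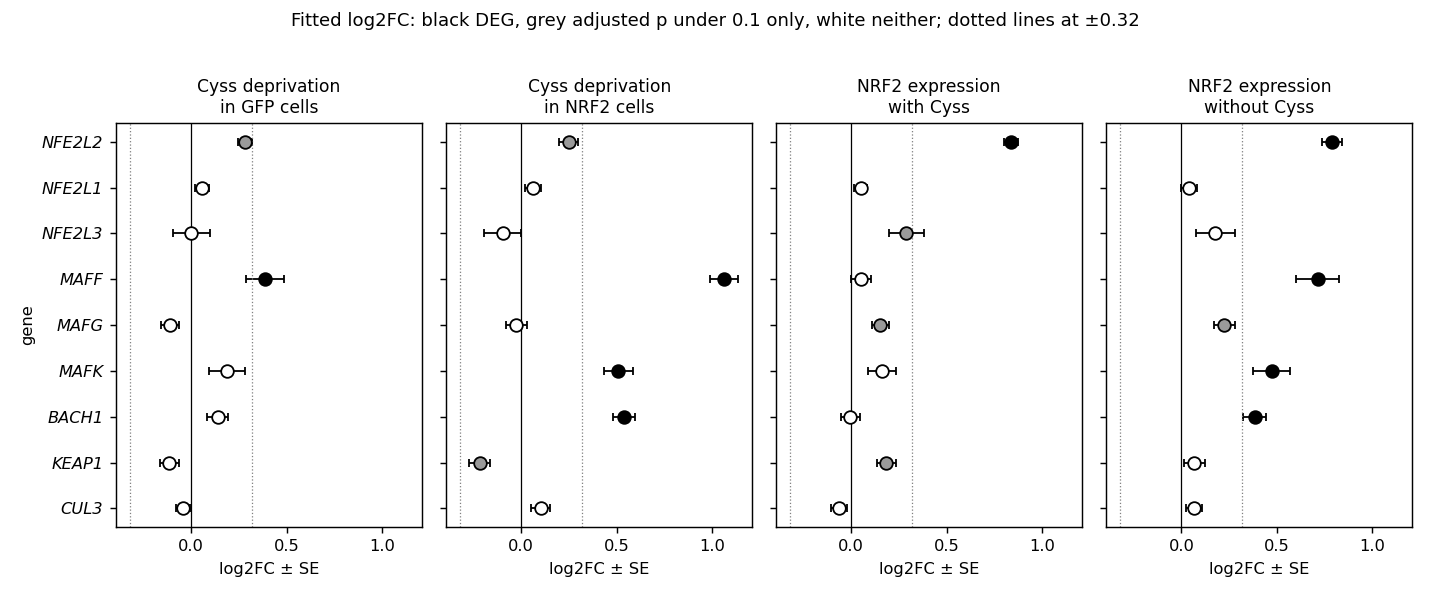
Fitted log2FC (horizontal axis) of the 9 genes (vertical axis) in 4 comparisons, with standard errors as bars; black points are DEGs, grey points passed the test only, white points did neither, and dotted lines mark 0.32 in either direction. MAFF without Cyss in NRF2 cells, at 1.06, lies farthest from 0, and the points of NFE2L1 and CUL3 are white in all 4 panels.

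The order of the mRNA levels between genes was read from RPKM, reads scaled by exon length, library size and TMM factors. This order depended on the length assigned to NFE2L2. The merged exons of all its annotated transcripts span 14975 bases, many of them from long transcripts, but those of its canonical transcript 2446 bases. By merged exons, NFE2L1 led in GFP cells with Cyss at 37.05 ± 0.467 RPKM (SD, n = 3), followed by KEAP1 at 19.8 ± 0.855, MAFG at 9.91 ± 0.430, CUL3 at 8.03 ± 0.175 and NFE2L2 at 7.48 ± 0.202. BACH1 at 4.96 ± 0.156, MAFF at 3.71 ± 0.118, MAFK at 2.70 ± 0.144 and NFE2L3 at 1.06 ± 0.0515 RPKM followed, with no overlap between neighbours. By canonical length, chosen after the values were seen, NFE2L2 at 45.8 ± 1.24 and NFE2L1 at 45.0 ± 0.567 RPKM shared the first place and their libraries overlapped. NFE2L3 was the lowest of the 9 in all 4 groups by either length. In NRF2 cells without Cyss the merged order had changed in the middle: NFE2L2 at 15.9 ± 1.04 RPKM stood above MAFG at 10.8 ± 0.704, and CUL3 at 8.25 ± 0.124, MAFF at 8.05 ± 0.916 and BACH1 at 7.20 ± 0.364 overlapped with their neighbours in this order.

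**Figure D2:**
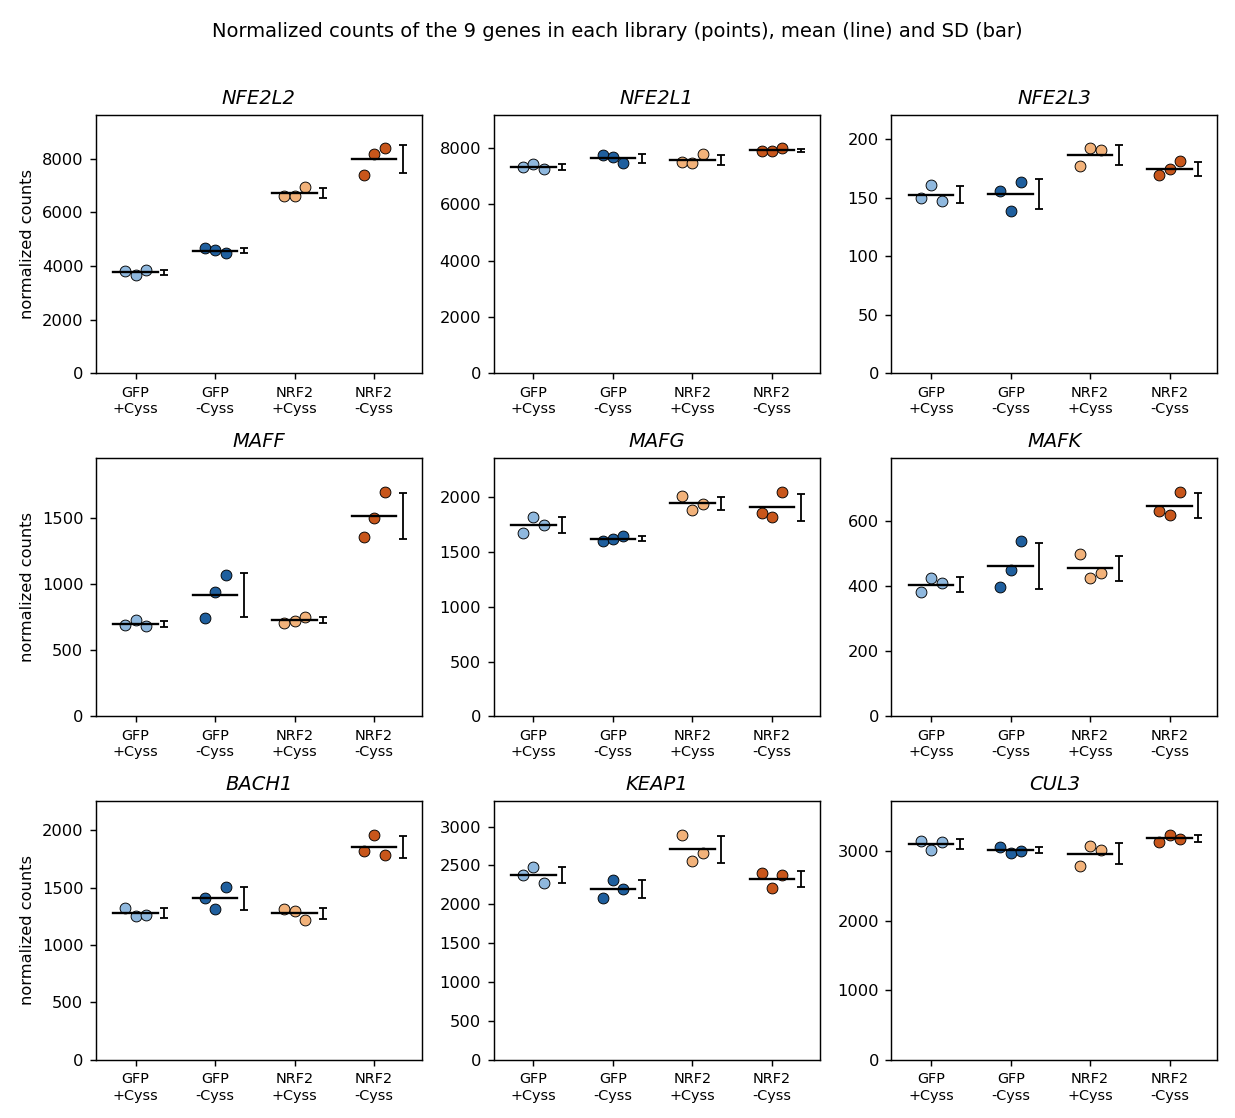
Normalized counts (vertical axis, from 0, TMM over 12 libraries) of each of the 9 genes in the 4 groups (horizontal axis); points are libraries, lines group means and bars SDs over 3 libraries. NFE2L2 steps up over the 4 groups without overlap, MAFF, MAFK and BACH1 are highest in NRF2 cells without Cyss, and NFE2L1 stays between 7237 and 7984 throughout.

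The promoters of the 9 genes were searched for short motifs, since MAFF and BACH1 moved together and since NRF2 itself was varied. RefSeq windows from 250 bases before to 50 after an annotated start were held for 8 of the genes, 15 windows in all, and matched GRCh37 exactly. The core of the antioxidant response element, TGACNNNGC on either strand, occurred in 2 of the 15 windows, 1 of KEAP1 and 1 of MAFF, which is 13.3% of them and the same share as the 13.3% of all 35116 windows. The AP-1 site TGANTCA, which reads the same on both strands except for its middle base, occurred in 1 of the 15 windows (6.67%), of BACH1, and in 7.71% of all windows. The C/EBP-ATF response element, searched as TGATGNAA on either strand, occurred in 0 of the 15 windows and in 3.62% of all windows. The matches are shown 5′ to 3′ on the strand of the gene with 10 bases on each side, the match in capitals:
KEAP1, 54 bases before the second start (chr19:10613483-10613511, minus strand), forward: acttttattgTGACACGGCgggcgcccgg
KEAP1, 31 bases before the second start (chr19:10613460-10613488, minus strand), reverse: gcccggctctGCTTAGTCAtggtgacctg
MAFF, 122 bases before the first start (chr22:38597869-38597897, plus strand), reverse: cttccaggggGCGGGGTCAtacgggggcg
BACH1, 48 bases before the second start (chr21:30671185-30671211, plus strand): gcggaaggagTGAGTCAcctgaccgct
Forward and reverse give the strand of the motif relative to the gene. The KEAP1 and MAFF stretches overlap an exon of 1 other annotated transcript of the same gene, and the BACH1 stretch lies in introns of 4 transcripts of BACH1. The MAFF stretch also overlaps the span of PLA2G6 on the opposite strand, but no exon of it. A match describes these letters in these windows and is no measurement of binding.

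NFE2L2 lies on the minus strand of chr2:178083395-178257484 (GENCODE 44 on GRCh37). Its normalized counts, on the scale of all 12 libraries, were 3796, 3647 and 3842 in the GFP libraries with Cyss and 4655, 4584 and 4501 without. In NRF2 cells they were 6598, 6618 and 6940 with Cyss and 7401, 8175 and 8396 without. No pair of groups overlapped, and every library of NRF2 cells lay above every library of GFP cells, as the labels imply. Reads from the vector and from the cell's own gene were counted together, and 1815 of the 2446 bases of the canonical transcript are coding sequence that a full-length construct would share.

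NRF2 cells exceeded GFP cells in NFE2L2 by a log2FC of 0.84 (SE 0.0378) with Cyss and 0.79 (SE 0.0525) without, with adjusted p values of 4.58e-10 and 6.38e-06 from edgeR's quasi-likelihood test. In counts the excess was 2957 ± 125 (SE of the difference) with Cyss and 3411 ± 305 without. Cyss deprivation raised NFE2L2 by a log2FC of 0.28 (SE 0.0382, adjusted p = 0.000764, edgeR) in GFP cells and 0.25 (SE 0.0510, adjusted p = 0.00274, edgeR) in NRF2 cells. The difference between both responses, tested as an interaction on all 12 libraries, was -0.03 (SE 0.0650, adjusted p = 0.789, edgeR), so that none was detected. The exons of NFE2L2 share 23.43% of their length with HNRNPA3 on the opposite strand, and reads were counted without strand. Reads ambiguous between overlapping genes were counted for neither, so that such an overlap can lower a count.

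NFE2L1 (chr17:46125691-46138907, plus strand) encodes a CNC factor that resides in the endoplasmic reticulum and activates proteasome genes when it is released. Its group means ran from 7321 ± 92.2 (SD, n = 3) normalized counts in the GFP cells given Cyss to 7922 ± 53.9 in NRF2 cells without. The log2FC in the 4 comparisons lay between 0.04 and 0.06, with adjusted p values from 0.323 to 0.527 (edgeR). The libraries of the groups compared did not overlap in any of the 4 comparisons, but the differences were small and none passed the test.

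NFE2L3 (chr7:26191818-26226757, plus strand) encodes another membrane-bound CNC factor. It had 150, 161 and 147 normalized counts in the GFP cells given Cyss, 156, 139 and 164 without, 177, 192 and 191 in NRF2 cells with Cyss, and 169, 174 and 181 without. Libraries of NRF2 cells lay above those of GFP cells in both media, whereas the media overlapped within each population. With Cyss the log2FC for NRF2 against GFP was 0.29 (SE 0.0903, adjusted p = 0.0931, edgeR), and it missed the threshold when 5 of the 6 libraries were left out in turn, with adjusted p values between 0.140 and 0.260. Without Cyss it was 0.18 (adjusted p = 0.247, edgeR). HNRNPA2B1 on the opposite strand shares 28.05% of the exon length of NFE2L3.

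Of the summed RPKM of the 3 NFE2L genes, NFE2L2 made up 16.4 ± 0.555% (SD, n = 3) in GFP cells with Cyss, 18.7 ± 0.0487% without, 25.2 ± 0.134% in NRF2 cells with Cyss and 27.8 ± 1.21% without, by merged exons. By canonical length these shares were 49.7 ± 1.02, 53.7 ± 0.0830, 63.0 ± 0.167 and 65.9 ± 1.37%. The order of the groups was the same by both lengths.

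MAFF (chr22:38596774-38612514, plus strand), a small MAF gene known to respond to stress and inflammatory stimuli, had the largest response to Cyss among the 9 genes. It had 692, 725 and 683 normalized counts in the GFP libraries with Cyss and 743, 938 and 1072 without. NRF2 cells had 706, 722 and 750 with Cyss and 1356, 1496 and 1699 without. The libraries of NRF2 cells without Cyss lay above all others, those of both populations with Cyss overlapped, and the GFP libraries without Cyss lay below those of NRF2 cells without Cyss, 1 of them within the range of the NRF2 cells with Cyss.

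In NRF2 cells MAFF rose without Cyss by a log2FC of 1.06 (SE 0.0744, adjusted p = 1.1e-07, edgeR), and in GFP cells by 0.38 (SE 0.0995, adjusted p = 0.0555, edgeR). The latter call was lost when any library but replicate 1 of GFP cells without Cyss was left out. Without replicate 3 of that group, the library that stood apart on the first component, the log2FC in GFP cells was 0.26 with an adjusted p of 0.156 (edgeR). The response was larger in NRF2 than in GFP cells by an interaction of 0.68 (SE 0.139, adjusted p = 0.00561, edgeR), which passed without any 1 library and was 0.81 without that replicate 3. Between populations, MAFF differed by a log2FC of 0.05 (adjusted p = 0.657, edgeR) with Cyss and of 0.72 (SE 0.113, adjusted p = 0.00149, edgeR) without.

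MAFK (chr7:1570338-1582679, plus strand), the small MAF gene with the fewest counts, had 382, 424 and 411 normalized counts in the GFP libraries with Cyss and 399, 451 and 540 without. NRF2 cells had 500, 426 and 442 with Cyss and 631, 621 and 691 without. Again the libraries of NRF2 cells without Cyss were above all others, whereas the GFP groups overlapped and replicate 3 was the highest of its group.

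MAFK rose without Cyss in NRF2 cells by a log2FC of 0.51 (SE 0.0761, adjusted p = 0.000208, edgeR), with 0.19 (adjusted p = 0.321, edgeR) in GFP cells. The interaction, 0.32 with an SE of 0.129, missed the threshold at an adjusted p of 0.124 (edgeR). Without replicate 3 of GFP cells without Cyss it was 0.45 with an adjusted p of 0.0166 (edgeR), and without replicate 1 of NRF2 cells with Cyss 0.39 with an adjusted p of 0.0973 (edgeR). Without Cyss, NRF2 cells exceeded GFP cells by a log2FC of 0.47 (SE 0.0970, adjusted p = 0.00607, edgeR). TMEM184A on the opposite strand shares 18.1% of the exon length of MAFK.

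MAFG (chr17:79876146-79885611, minus strand) had the highest RPKM of the 3 small MAF genes by merged exons in all 4 groups, and no response to Cyss was detected. Its counts were 1667, 1819 and 1747 in the GFP libraries given Cyss, 1599, 1613 and 1641 without, 2004, 1880 and 1936 in NRF2 cells with Cyss, and 1853, 1816 and 2047 without. NRF2 cells exceeded GFP cells by a log2FC of 0.15 (SE 0.0449, adjusted p = 0.0781, edgeR) with Cyss and 0.22 (SE 0.0554, adjusted p = 0.0152, edgeR) without, and in both media no library of one population overlapped with the other. With Cyss, the call was lost when any library but replicate 2 of GFP cells with Cyss was left out. For Cyss deprivation the log2FC was -0.11 (adjusted p = 0.212, edgeR) in GFP and -0.03 (adjusted p = 0.775, edgeR) in NRF2 cells, and the GFP groups did not overlap although the test was not passed.

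The make-up of the small MAF mRNAs therefore differed between groups. By merged exons, MAFG held 60.7 ± 0.287% (SD, n = 3) of their summed RPKM in GFP cells with Cyss and 61.5 ± 0.154% in NRF2 cells with Cyss, 53.8 ± 3.91% in GFP cells without and 46.7 ± 1.13% in NRF2 cells without. MAFF held 22.8 ± 0.592, 21.5 ± 1.07, 28.3 ± 2.79 and 34.7 ± 1.60% in the same order, and MAFK between 16.5 and 18.6%. The summed RPKM was 16.3 ± 0.660 in GFP cells with Cyss, 17.1 ± 1.46 without, 17.9 ± 0.555 in NRF2 cells with Cyss and 23.2 ± 1.80 without. By canonical length, the share of MAFG was 45.4, 46.5, 38.2 and 31.2% in the order given for MAFG, so that the mean of MAFF exceeded that of MAFG in both populations without Cyss, at 11.5 ± 2.07 against 9.51 ± 0.127 RPKM in GFP cells, where the libraries overlapped, and at 19.0 ± 2.16 against 11.2 ± 0.729 RPKM in NRF2 cells, where they did not.

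BACH1 (chr21:30566392-31003071, plus strand) had 1324, 1249 and 1262 normalized counts in the GFP libraries with Cyss and 1406, 1310 and 1508 without. In NRF2 cells it had 1310, 1297 and 1218 with Cyss and 1818, 1960 and 1782 without. As for MAFF, the libraries of NRF2 cells without Cyss stood above those of the other 3 groups, which lay between 1218 and 1508.

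The rise without Cyss in NRF2 cells was a log2FC of 0.54 (SE 0.0553, adjusted p = 5.52e-06, edgeR). In GFP cells the log2FC was 0.14 (SE 0.0555, adjusted p = 0.206, edgeR). The responses differed by an interaction of 0.40 (SE 0.0788, adjusted p = 0.00424, edgeR), which passed without any 1 library, with values from 0.35 to 0.45. With Cyss, BACH1 did not differ detectably between NRF2 and GFP cells, at a log2FC of -0.00 (SE 0.0478, adjusted p = 0.973, edgeR), and without Cyss it was higher in NRF2 cells by 0.38 (SE 0.0616, adjusted p = 0.00165, edgeR). GRIK1-AS2 on the same strand shares 14.0% of the exon length of BACH1.

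Of the 9 genes, 2 passed the interaction, MAFF and BACH1, beside 15.1% of all 17674 genes tested. The interaction for CUL3 was 0.14 (SE 0.0601, adjusted p = 0.145, edgeR), and those of the other genes not yet given were -0.10 for KEAP1, 0.08 for MAFG, 0.00 for NFE2L1 and -0.10 for NFE2L3, with adjusted p values from 0.439 to 0.967 (edgeR).

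KEAP1 (chr19:10596801-10614234, minus strand) had 2372, 2484 and 2279 normalized counts in the GFP libraries with Cyss and 2084, 2315 and 2202 without. NRF2 cells had 2893, 2559 and 2665 with Cyss and 2402, 2209 and 2373 without. NRF2 cells with Cyss lay above all other libraries, and the other 3 groups overlapped.

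KEAP1 fell without Cyss in NRF2 cells, with a log2FC of -0.22 (SE 0.0558, adjusted p = 0.0117, edgeR), below the size set for a DEG. In GFP cells the log2FC was -0.11 (adjusted p = 0.242, edgeR). With Cyss, NRF2 cells exceeded GFP cells by 0.18 (SE 0.0484, adjusted p = 0.0489, edgeR), a call lost when replicate 3 of GFP cells with Cyss, or replicate 1 or 3 of NRF2 cells with Cyss, was left out, at adjusted p values from 0.126 to 0.267 (edgeR). Without Cyss the log2FC was 0.07 (adjusted p = 0.415, edgeR).

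CUL3 (chr2:225334867-225450114, minus strand), the scaffold of the ligase, had group means between 2969 ± 154 (SD, n = 3) normalized counts in NRF2 cells with Cyss and 3189 ± 48.1 in NRF2 cells without. Its log2FC without Cyss was -0.04 (adjusted p = 0.604, edgeR) in GFP cells and 0.10 (adjusted p = 0.160, edgeR) in NRF2 cells, which passed with all 12 libraries in the fit (adjusted p = 0.0875, edgeR). Between populations it was -0.06 with Cyss and 0.07 without, with adjusted p values of 0.443 and 0.313 (edgeR).

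Set against KEAP1, NFE2L2 mRNA increased over the 4 groups. By merged exons the ratio of their RPKM was 0.382, 0.350 and 0.402 in GFP cells with Cyss, with a mean of 0.378 ± 0.0261 (SD, n = 3). The means were 0.498 ± 0.0315 in GFP cells without Cyss, 0.594 ± 0.0434 in NRF2 cells with and 0.821 ± 0.0767 without, and no groups overlapped. By canonical length the same means were 1.66, 2.19, 2.61 and 3.61. The lengths change this ratio by the same factor in every library, so that the order of the groups could not depend on them.

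Set against BACH1, the order of the NRF2 groups was the opposite. The ratio of NFE2L2 to BACH1 was 1.51 ± 0.0469 (SD, n = 3) in GFP cells with Cyss and 1.67 ± 0.133 without, where the groups overlapped, and 2.70 ± 0.187 in NRF2 cells with Cyss and 2.21 ± 0.176 without, where they did not. The ratios come from the same libraries as the levels and have no test of their own.

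**Figure D3:**
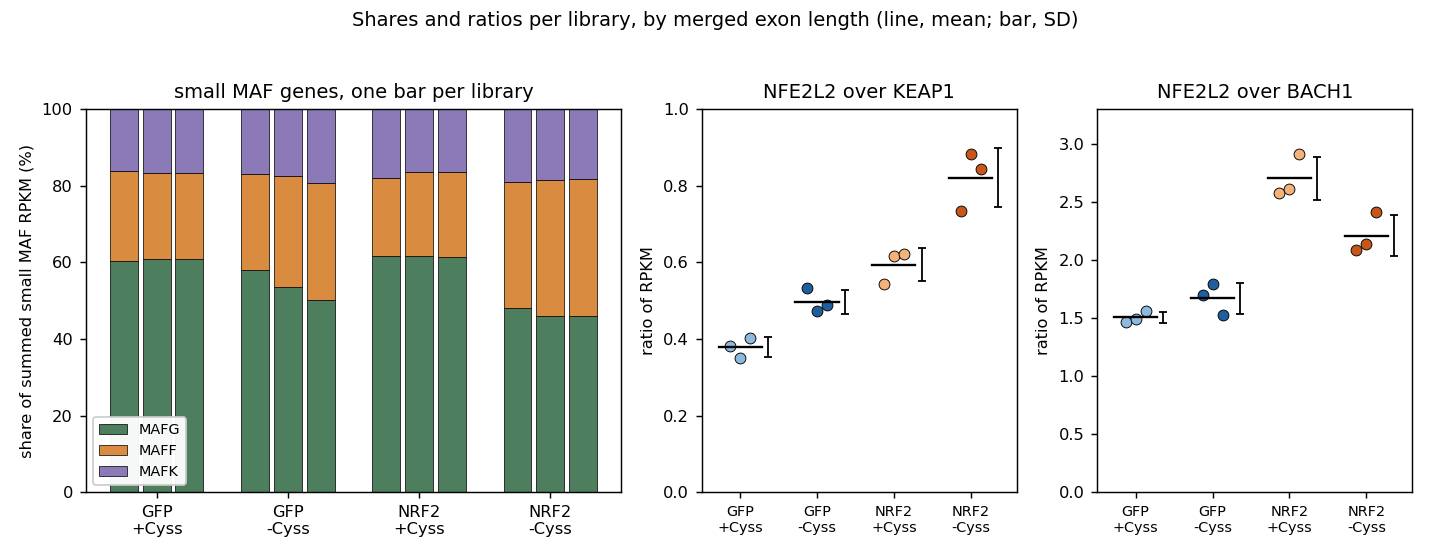
Left, share (vertical axis, %) of MAFG, MAFF and MAFK in their summed RPKM, one bar per library in the 4 groups; centre and right, ratio of the RPKM of NFE2L2 to that of KEAP1 and of BACH1 (vertical axes, from 0) per library, with group means as lines and SDs over 3 libraries as bars, all by merged exon length. The share of MAFF averages 34.7% in NRF2 cells without Cyss against 21.5% with Cyss, and the ratio to KEAP1 averages 0.821 in NRF2 cells without Cyss against 0.378 in GFP cells with Cyss.

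Known target genes of NRF2 and BACH1 were read beside the regulators, from a list of 18 that, like the other lists, was written with earlier results of these data known. Among the 18 are GCLM, TXNRD1, SRXN1, AKR1B10 and OSGIN1, which the study had selected from these same libraries. They had fallen without Cyss in GFP cells and risen with NRF2, in either medium or in both. The counts for Cyss deprivation in GFP cells and for NRF2 against GFP cells therefore partly restate that choice. With Cyss, 16 of the 18 were higher in NRF2 than in GFP cells and none was lower, beside 6.43% of all genes that passed. Their median log2FC was 0.29 against -0.00 for all genes tested. AKR1C1 and AKR1B10, which encode aldo-keto reductases, led with 1.33 and 1.44. OSGIN1, a gene known to respond to oxidative stress, followed with 1.03. Without Cyss, 13 of the 18 were higher in NRF2 cells and none lower, beside 28.8% of all genes that passed. The median was then 0.36 against -0.02.

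Without Cyss, most of these targets fell in both populations while NFE2L2 mRNA rose. In GFP cells 12 of 18 fell and 1 rose, beside 5.92% of all genes that passed. For NRF2 cells, 13 fell and 1 rose, beside 29% of all genes. The median log2FC was -0.22 in GFP and -0.30 in NRF2 cells, against 0.00 and -0.01 for all genes. The gene that rose was HMOX1, which encodes heme oxygenase 1, in both populations, by 0.44 (adjusted p = 0.000209, edgeR) in GFP cells and 0.21 (adjusted p = 0.0892, edgeR) in NRF2 cells, where with scaling by library size only none of the 18 rose and 14 fell. The interaction passed for 2 of the 18 upward and 7 downward, beside 15.1% of all genes.

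Other bZIP proteins that pair with CNC or MAF factors or bind like sites were listed as ATF3, ATF4, JUN, JUNB, JUND, FOS, FOSL1 and FOSL2. In GFP cells, 2 of these 8 rose without Cyss and none fell, beside 5.92% of all genes that passed. ATF3 rose by a log2FC of 1.22 (adjusted p = 0.000157, edgeR). ATF4, the main factor of the amino acid response, rose by 0.84 (adjusted p = 1.04e-08, edgeR). In NRF2 cells 6 rose and 2 fell, beside 29% of all genes that passed, with a median log2FC of 0.63. JUN rose there by 0.81, FOSL1 by 0.54 and FOS by 1.03. The 2 that fell were JUND, at -0.33, and FOSL2, at -0.27. FOS had low counts, with means of 56.3 normalized counts in NRF2 cells with Cyss and 115 without. NRF2 cells without Cyss exceeded GFP cells without Cyss in 4 of the 8 and were lower in 1, beside 28.8% of all genes that passed. FOS was higher by 1.26 (SE 0.179, adjusted p = 0.000851, edgeR), and ATF4 was lower, at -0.18 (adjusted p = 0.0573, edgeR). The interaction passed for 4 of the 8, all upward (JUN, JUNB, FOS and FOSL1), beside 15.1% of all genes. By DESeq2's Wald test it passed for 3 upward and 1 downward, and with scaling by library size only for 3 upward and 2 downward.

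A list of 10 genes held proteins that bind KEAP1, help its removal or, like p21, bind NRF2 and loosen the hold of KEAP1 on it. Of these, SESN2, a stress-induced sestrin, rose in both populations without Cyss, by a log2FC of 1.72 in GFP and 1.69 in NRF2 cells. It was the 1 of 10 to pass in GFP cells, beside 5.92% of all genes. In NRF2 cells 3 of 10 rose and 2 fell, beside 29% of all genes that passed. CDKN1A, which encodes the cell cycle inhibitor p21, rose there by 1.44 (SE 0.102, adjusted p = 1.28e-07, edgeR), and SQSTM1, the autophagy receptor p62, fell with a log2FC of -0.25 (SE 0.0474, adjusted p = 0.00165, edgeR).

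The partners of CUL3 in its ligase and in its NEDD8 cycle were 12 genes. Of these, 1 rose without Cyss in GFP cells, beside 5.92% of all genes that passed. It was SENP8, a NEDD8 protease, with a log2FC of 0.58 (adjusted p = 0.0683, edgeR). By DESeq2, 0 of the 12 rose and 1 fell there. In NRF2 cells 2 rose and 5 fell (0 and 7 with scaling by library size only), beside 29% of all genes that passed. Among those that fell were RBX1, the RING subunit of the ligase, at -0.24, and UBA3, a subunit of the NEDD8 activating enzyme, at -0.24, and the list had a median log2FC of -0.09 against -0.01 for all genes. Compared with GFP cells without Cyss, NRF2 cells without Cyss were higher in 1 and lower in 5 of the 12 (1 and 3 by DESeq2). In that comparison 28.8% of all genes passed. With Cyss, NRF2 cells were lower in 1, beside 6.43% of all genes.

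Other ligases and kinases that act on NRF2 passed in 0 of 12 cases for Cyss in GFP cells and in 0 of 12 for NRF2 with Cyss, where 5.92 and 6.43% of all genes passed. At an unadjusted p under 0.05 the numbers were 0 and 3 of the 12 by edgeR, and DESeq2 also passed 0 in both comparisons. In NRF2 cells 3 rose and 2 fell without Cyss (1 and 3 with scaling by library size only), 5 of 12 beside 29% of all genes. Those that fell were SKP1 and BTRC, parts of the ligase that recognises NRF2 phosphorylated by GSK3, at -0.23 and -0.18. FBXW11 and CUL1 of the same list did not pass, at 0.09 and -0.07. GSK3A and GSK3B were among the 3 that rose, by 0.14 and 0.21. Without Cyss, 4 of the 12 genes were higher and 3 lower in NRF2 than in GFP cells, beside 28.8% of all genes that passed. GSK3B was among the higher, by a log2FC of 0.24 (SE 0.0545, adjusted p = 0.0109, edgeR).

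Of 7 tested genes for the processing and turnover of NFE2L1, OGT, the enzyme that attaches N-acetylglucosamine to proteins, rose without Cyss in both populations. Its log2FC in GFP cells was 0.28 (SE 0.0424, adjusted p = 0.00196, edgeR). It was the 1 of 7 to pass there, beside 5.92% of all genes. For NRF2 cells the log2FC was 0.33 (SE 0.0429, adjusted p = 4.94e-05, edgeR). There 2 rose and 1 fell, beside 29% of all genes that passed. Without Cyss, DDI2, the protease that cleaves NFE2L1, and HCFC1 were higher in NRF2 than in GFP cells, by 0.25 and 0.30. The proteasome subunits, known targets of NFE2L1, passed in 0 of 31 cases for Cyss in GFP cells by edgeR and by DESeq2, with 3 at an unadjusted p under 0.05 by edgeR. Of all genes, 5.92% passed there by edgeR. In NRF2 cells 1 rose and 11 fell without Cyss, 12 of 31 beside 29% of all genes. Without Cyss, 17 of 31 were lower and 1 higher in NRF2 than in GFP cells, beside 28.8% of all genes that passed, with a median log2FC of -0.15 against -0.02 for all genes, and PSMA5 farthest at -0.31. With scaling by library size only, 19 fell for Cyss deprivation of NRF2 cells and 23 were lower for NRF2 without Cyss.

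Of the 8 coregulators of NRF2, 4 rose and 1 fell without Cyss in NRF2 cells, beside 29% of all genes that passed. The 1 that fell was RXRA, a nuclear receptor known to inhibit NRF2, at -0.44 (SE 0.0743, adjusted p = 0.000546, edgeR). In GFP cells RXRA was also the 1 of the 8 to pass, at -0.27 (adjusted p = 0.0391, edgeR), beside 5.92% of all genes. SMARCA4, a chromatin remodeller, was higher by 0.29 in NRF2 cells without Cyss than in GFP cells without it, as 1 of 5 higher. In that comparison 28.8% of all genes passed. Of 5 tested CNC and large MAF genes outside the 9, none passed for Cyss in GFP cells or for NRF2 with Cyss by edgeR or DESeq2, with 0 at an unadjusted p under 0.05 by edgeR in both. The shares of all genes that passed there by edgeR were 5.92 and 6.43%. MAF was higher by 0.32 (adjusted p = 0.0668, edgeR) in NRF2 cells without Cyss than in GFP cells without it.

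**Figure D4:**
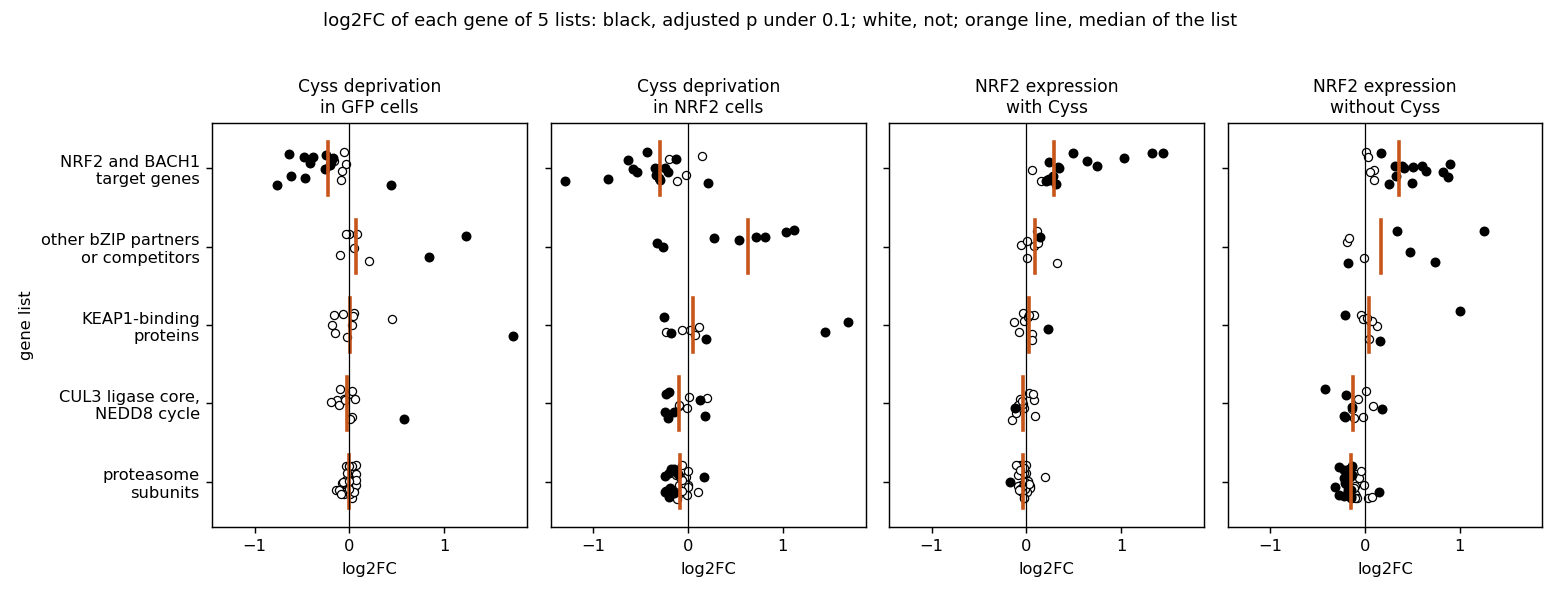
Fitted log2FC (horizontal axis) of each gene of 5 lists (vertical axis) in 4 comparisons; black points had an adjusted p under 0.1, white points did not, orange lines are medians, and vertical scatter within a list has no meaning. The target genes lie mostly left of 0 for Cyss deprivation, with medians of -0.22 and -0.30, and right of 0 for NRF2 expression, with medians of 0.29 and 0.36.

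The genes whose pattern over the 12 libraries was most like that of NFE2L2, by Pearson's r of log2 normalized counts among 13529 genes, were MMP10 (r = 0.980), CTSD (r = 0.974), ADAMTS14 (r = 0.960), CNTNAP1 (r = 0.951) and HMOX1 (r = 0.949). MMP10, a stromelysin, averaged 24.0 normalized counts in the GFP cells given Cyss, 41.8 in those without, 310 in NRF2 cells with Cyss and 476 in those without. For MAFF they were IL6 (r = 0.994), IER3 (r = 0.993), PLAU (r = 0.993), SPRY2 (r = 0.991) and METRNL (r = 0.990). IL6, an inflammatory cytokine, averaged 378 normalized counts in the GFP cells given Cyss, 575 in those without, 364 in NRF2 cells with Cyss and 1230 in those without. The 12 libraries fall into 4 groups, so that such an r mostly restates the order of the group means, and it is a description without a test.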

How the data were processed

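RNA-seq was done on 12 libraries of Hs 578T cells, 3 in each of 4 groups. The authors mapped reads to hg19 with TopHat2 2.1.0 and counted them on exons with HTSeq 0.11.2, without strand, and the deposited values are raw counts per gene symbol. The annotation behind the symbols is not given in the sources used here. Counters of unassigned reads held from 15.9 to 17.1% of each file and stayed out, as did 523 rRNA genes, which left 55242 genes.

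Tests were run in R 4.3.3 (edgeR 4.0.16, DESeq2 1.42.0) and plots drawn in Python 3.11.15 (matplotlib 3.10.9). Each comparison of 2 groups used its 6 libraries, with TMM factors, the genes whose normalized counts averaged 10 or more in one of the groups, and the quasi-likelihood test of edgeR, adjusted by Benjamini-Hochberg over all genes kept. The interaction was fitted on all 12 libraries. The study used DESeq2, which was run as an alternative. Standard errors belong to the fitted log2FC. The procedure was tested on simulated data.

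Normalized counts printed per library are scaled over 12 libraries, and levels between genes are RPKM by exon length in GENCODE 44 on GRCh37. Promoter windows are from RefSeq on GRCh38.p14 and were placed on GRCh37 by exact match, and all 300 bases of each matched in 1 place of its chromosome. No window was held for MAFK. The 9 genes and the gene lists were chosen with earlier results of these data known. Named genes were the 9, up to 3 per list with the largest log2FC among those that passed, and 5 of like pattern for NFE2L2 and MAFF among genes averaging 50 or more normalized counts. Some genes that this rule names are not reported here. JUN, JUNB, JUND, FOSL1, FOSL2, GSK3A, FBXW11 and CUL1 were named outside this rule, after their values were seen. GCLM, TXNRD1 and SRXN1 were named because the study had selected them. Alternatives were DESeq2's size factors, library size only, DESeq2's Wald test, filterByExpr, no filter, all 12 libraries in each fit, a replicate block, an adjusted p under 0.05, rRNA genes kept, and each library left out.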

Additional observations from a re-analysis of the deposited data

Results flagged for a closer look

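The response to Cyss deprivation differed between NRF2 and GFP cells for 2 of the 9 genes by the interaction fitted on all 12 libraries. The interaction for MAFF was 0.68 in log2 units (SE 0.139, adjusted p = 0.00561, edgeR), with MAFF higher without Cyss in 3 of 3 libraries of both populations. That for BACH1 was 0.40 (SE 0.0788, adjusted p = 0.00424, edgeR). Without replicate 3 of GFP cells without Cyss, the library that stood apart, the values were 0.81 for MAFF and 0.45 for BACH1. Groups of 3 libraries are too small for a check of single outlying values.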

How the results depend on the processing

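Of 720 values of a gene's log2FC under other settings or without 1 library, 670 kept their direction and their side of the threshold, 27 lost the call, 6 gained it and 17 turned in sign, and no call turned. For Cyss deprivation in GFP cells, 1 of the 9 genes passed and 0 were DEGs at an adjusted p under 0.05, and from 1 to 2 passed and 0 to 1 were DEGs without 1 library. For NRF2 with Cyss, 2 genes passed by DESeq2's Wald test, with all 12 libraries in the fit or at an adjusted p under 0.05, and from 1 to 4 passed and 1 to 2 were DEGs without 1 library. For Cyss deprivation in NRF2 cells 5 passed and 3 were DEGs, for NRF2 without Cyss 5 and 4, without any 1 library, and the interaction passed for 2 to 3. The values that turned in sign were near 0. For NFE2L3 in GFP cells without Cyss they were -0.0055 by library size only, -0.0111 with no filter, and from -0.0465 to 0.0617 without 1 library. BACH1 for NRF2 with Cyss was 0.0037 by library size only and from -0.0261 to 0.0296 without 1 library. MAFG in NRF2 cells without Cyss ran from -0.0802 to 0.0076 without 1 library, the interaction for NFE2L2 from -0.0712 to 0.0179, and that for NFE2L1 from -0.0128 to 0.0175, with -0.0478 by library size only. With all 12 libraries in the fit, CUL3 in NRF2 cells without Cyss gained the call at 0.10, and with no filter the interaction for MAFK gained it at 0.32 (adjusted p = 0.04999 from edgeR). The cause was not tested.

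Replicate numbers are shared between groups, but correlations between same-numbered libraries ranged from -0.161 to 0.248, so that the numbers were not taken as pairs. With a replicate block, 6 of the 9 genes passed for Cyss deprivation in NRF2 cells (CUL3 added, at 0.10), 3 for NRF2 with Cyss (NFE2L3 lost, at an adjusted p of 0.103 from edgeR) and 3 for the interaction (MAFK added, at an adjusted p of 0.0861 from edgeR). Scaling by library size only lowered the share of upward calls over all genes from 52.5 to 31.4% for Cyss deprivation in NRF2 cells, from 48.7 to 36.8% for NRF2 without Cyss and from 59.4 to 36.2% for the interaction. The lengths assigned to genes moved the ratios and shares as given with them. Changes in mRNA smaller than the spread of 3 libraries were not detectable, and counts hold no measure of protein.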
